A study of Mus musculus with 4 samples.

Results

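The genes described here are 4 members of the mouse calmodulin family, Calm2, Calm3, Calm4 and Calml3, chosen by name with earlier results of these arrays known, among them a lower Calm4 signal in Srf-deleted cells. Members were found as all probe sets that the platform annotation assigns to 1 of these symbols alone. The 932 probe sets assigned to several symbols were not searched. This gave 2 probe sets of 45037 on the array apart from controls, 1 for Calm4 (1450633_at) and 1 for Calml3 (1418608_at). Calm2 and Calm3 had 0 probe sets under their symbols alone in the annotation used and are not analysed here. The epidermal members could therefore not be set beside the ubiquitous ones.

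Basal epidermal cells were sorted from mouse embryos at E16.5 on α6 integrin and YFP, and their total RNA was measured on 4 expression arrays. The cKO group (n = 2) came from SRF fl/fl embryos and the het group (n = 2) from SRF fl/+ embryos, which the submitters' design text names WT. All carried K14-Cre and the ROSA26 YFP fl/fl reporter, so the het cells had also been exposed to Cre and may have lost 1 Srf allele; the keratin 14 promoter is active in basal keratinocytes. The strain label of the het samples reads only Rosa26, so their genotype is taken from the titles and the series design text. For het_1210 no treatment protocol is given, and no label says whether a sample is 1 embryo or a pool. The titles carry the same numbers in both groups: Ko_1210 and het_1210 are called the first pair here, and KO_1261 and het_1261 the second, although no label says what the numbers mark. The spread between arrays of a group may be partly technical.

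Calmodulin is a small calcium sensor. Its EF-hand loops bind calcium, the protein then wraps around target peptides, and in this way it switches kinases, the phosphatase calcineurin, calcium pumps and myosins. Calm2 and Calm3 encode the same ubiquitous protein. Calm4, also named Scarf (skin calmodulin-related factor), is a mouse relative found in differentiating keratinocytes of the epidermis, and Calm5 (Scarf2) is its close relative. Calml3 encodes calmodulin-like protein 3, which in human is found in differentiating epithelia and binds myosin-10. Extracellular calcium is a main signal for keratinocyte differentiation.

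In the RefSeq gene table Calml3, Calm4 and Calm5 lie next to each other on mouse chromosome 13, in this order. The sequences around the start sites of Calm4 and Calm5 are printed because these genes are near copies of each other here. Each runs from 250 bases before to 50 bases after the RefSeq start site (GRCm38.p6, plus strand), at chr13:3837507-3837806 for Calm4 and chr13:3853923-3854222 for Calm5, 5′ to 3′. Capitals mark matches to the KLF motif CACCC on either strand.
Calm4: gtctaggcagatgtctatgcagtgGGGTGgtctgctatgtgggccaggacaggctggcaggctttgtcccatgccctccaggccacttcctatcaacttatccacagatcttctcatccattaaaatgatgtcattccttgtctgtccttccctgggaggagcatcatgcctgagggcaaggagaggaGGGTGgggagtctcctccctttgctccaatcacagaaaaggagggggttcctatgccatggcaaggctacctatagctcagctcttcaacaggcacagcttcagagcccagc
Calm5: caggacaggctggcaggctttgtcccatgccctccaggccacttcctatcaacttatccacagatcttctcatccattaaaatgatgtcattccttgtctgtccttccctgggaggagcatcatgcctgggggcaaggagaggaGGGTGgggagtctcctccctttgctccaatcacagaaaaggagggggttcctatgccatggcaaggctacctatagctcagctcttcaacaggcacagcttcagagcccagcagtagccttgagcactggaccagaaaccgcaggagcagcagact
Shifted by 44 bases, the sequences overlapped over 256 bases and were identical at 255 of them (99.6%). Whether the Calm4 probe set also reads Calm5 transcripts was not tested, and Calm5 had 0 probe sets of its own in the annotation used. Searched on both strands, the Calm4 window held 2 matches to CACCC and the Calm5 window 1, while 57.5% of 32851 mouse promoter windows of this length held at least 1. Neither window held a match to the CArG box, the motif bound by serum response factor (1.63% of all windows did), to the AP-1 motif TGANTCA (7.81%), to the shorter unit of the p53 family motif (8.36%) or to TATAAA (13.6%). As only the KLF motif matched, no matches overlapped. Such a search covers only these letters in these windows.

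The targeted gene was checked first. The brighter Srf probe set had signals of 47.9 and 80.4 in Ko_1210 and KO_1261, against 833.9 and 1108 in het_1210 and het_1261. The Srf transcript was thus low on both arrays labelled cKO. Signals are MAS5 intensities on a linear scale, and changes are given as log2(signal + 1), cKO minus het. Poly-A spike-in controls were 2.52-fold (cKO) and 2.45-fold (het) higher in the first pair than in the second, at 12 of 12 probe sets, so the pairs differ technically. Differences are therefore given within each pair too. Xist, of the inactive X chromosome, had signals of 115.4 and 22802 in Ko_1210 and KO_1261, against 62.6 and 14338 in het_1210 and het_1261. The Y-linked gene Eif2s3y had 1386 and 3.01 in cKO, against 1485 and 833.9 in het, in the same order. The sex makeup thus differed between the pairs and, within the second pair, between cKO and het, since het_1261 had high signals of both genes. The part of sex in the results was not tested.

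Calm4 was lower in cKO cells. Its signal was 7284 in Ko_1210 and 6243 in KO_1261, against 11365 in het_1210 and 10109 in het_1261. Both cKO arrays lay below both het arrays, and the groups did not overlap. The means were 6763 ± 736 in cKO and 10737 ± 888 in het (SD, n = 2 each), so that cKO held 0.63 times the het signal. The log2 difference was -0.67 ± 0.24 (SE, limma without a block). Within the first pair it was -0.64 and within the second pair it was -0.70, a gap of only -0.05 between the pairs (second minus first). The pairs differed less than the groups: the second over the first gave a ratio of 0.857 in cKO and 0.89 in het. In bulk samples such as these, fewer cells that express a gene and less of its RNA per cell cannot be told apart.

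Calml3, the neighbour of Calm4, did not share this pattern. Its signal was 479.6 in Ko_1210 and 468.0 in KO_1261, against 229.3 in het_1210 and 911.9 in het_1261. The 2 cKO arrays were nearly equal and lay between the het arrays, which held the lowest and the highest signal, so the groups overlapped. The means were 473.8 ± 8.2 in cKO and 570.6 ± 482.7 in het (SD, n = 2 each). Within the first pair Calml3 was 2.09-fold higher in cKO (log2 difference 1.06), and within the second pair cKO held 0.513 times the het signal (-0.96). The mean log2 difference of 0.05 ± 0.68 (SE) was far smaller than this spread between the het arrays. The ratio of the second to the first pair was 0.976 in cKO and 3.98 in het.

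**Figure D1:**
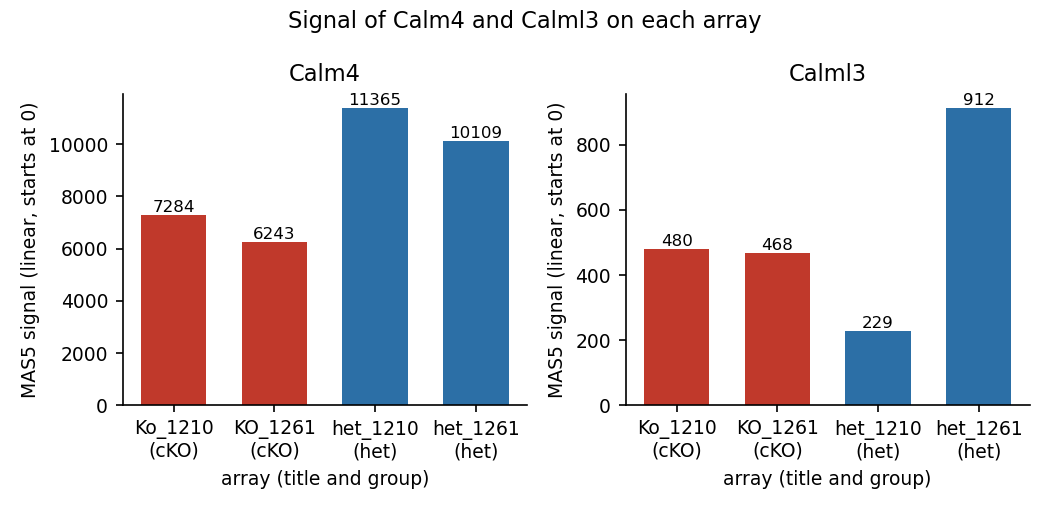
Bars give the MAS5 signal (linear scale from 0) of Calm4 and of Calml3 on each of the 4 arrays, cKO in red and het in blue. For Calm4 both cKO bars (7284 and 6243) stand below both het bars (11365 and 10109), while for Calml3 the cKO bars (480 and 468) stand between the het bars (229 and 912).

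Both members passed the filter on low signals (a signal of 65.9) and entered a limma fit over 22518 probe sets. Without a block 0 of the 2 were called at an adjusted p under 0.05 (background: 0 of 22518 probe sets, 0%). Before adjustment 66 of 11055 genes were under 0.05 in this fit, which is a smaller share of the genes than 0.05. With a block for the pair, 1 of the 2 members, Calm4, was called as lower (background: 0.497% of probe sets called lower, 0.862% in either direction). The Calm4 call held with a robust prior and with quantile scaling, but it ended under median centring (log2 difference -0.55) and with no variance trend, all with the block. Groups did not overlap, with cKO below het, for 1 of the 2, against 10.4% of all tested probe sets. The members were chosen with this comparison known, so these counts are a description and nothing is read from them.

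Of the calmodulin relatives that are no members, Calml4 is a light chain of a brush border myosin. Calml4 had signals of 296.9 and 265.2 in Ko_1210 and KO_1261, against 336.8 and 268.3 in het_1210 and het_1261. Its groups overlapped only in that het_1261 lay below Ko_1210, and its log2 difference was -0.10 ± 0.24 (SE with the block), a value that did not pass and was 0.02 under median centring. The other near neighbours of Calm4 on the chromosome with a probe set were Net1, a guanine nucleotide exchange factor, at -0.02 (0.07 within the first pair and -0.11 within the second pair), Asb13, a SOCS box protein, at -0.34 (-0.25 and -0.43), and Tasor2 at 0.15 (0.30 and -0.01). None of these 3 passed in limma with the block (adjusted p = 0.579 for Asb13, 0.883 for Tasor2 and 0.986 for Net1), and their cKO and het arrays overlapped. Tubal3, the third gene on the other side, had 0 probe sets under its symbol alone.

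Genes of the spinous layer, the first differentiated layer above the basal cells, were lower in cKO in the same samples. Basal cells that leave the basement membrane enter this layer and switch from keratins 5 and 14 to keratins 1 and 10. Of 12 spinous genes tested, 12 were lower in cKO within both pairs, against 31.6% of all 11055 tested genes (under other scalings the mean difference turned to 0.02 for Dmkn by median centring and 0.01 for Krtdap by quantiles), and in 9 both cKO arrays lay below both het arrays (10.9% of all tested genes). In limma with the block for the pair 7 of the 12 fell and 0 rose (of all tested genes 0.615% were called lower and 0.253% higher), while without the block 0 were called. The list median was -0.65 (-0.88 within the first pair and -0.47 within the second pair), beside -0.02 for all tested genes. The list was drawn up with earlier results of these arrays known, and without Lypd3, Ly6d and Elovl4, which were put on it with their values in view, 4 of 9 fell with a median of -0.58.

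Keratin 1 (Krt1) had signals of 14593 and 12792 in Ko_1210 and KO_1261, against 32610 and 17235 in het_1210 and het_1261. It fell by 0.80 ± 0.14 (SE, adjusted p = 0.00128 in limma with the block), with -1.16 within the first pair and -0.43 within the second pair. Its partner keratin 10 (Krt10) had 31135 and 24854 in cKO, against 58187 and 33198 in het, in the same order, and fell by 0.66 ± 0.13 (adjusted p = 0.0034). For both keratins het_1210 stood highest and the difference was larger within the first pair, unlike Calm4, whose differences were nearly equal. Suprabasin (Sbsn), a secreted suprabasal protein, fell by 0.64 ± 0.15 (-0.86 and -0.42, adjusted p = 0.0191). The desmosomal cadherin Dsg1b fell by 0.999 ± 0.21 (-1.08 and -0.92, adjusted p = 0.00918). Ly6d, a membrane-anchored Ly6 protein, fell by 1.17 ± 0.16 (adjusted p = 3.8e-05), Elovl4, which elongates very long chain fatty acids, by 1.12 ± 0.21 (0.00252), and Lypd3, a membrane protein of suprabasal cells, by 1.06 ± 0.20 (0.00252). Not every spinous gene was called: Krtdap, a secreted keratinocyte peptide, was at -0.14 (-0.26 and -0.02), dermokine (Dmkn) at -0.10 (-0.14 and -0.05) and Dsg1a at -0.52 (-0.53 and -0.51).

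These calls depend on the variance model of the fit with the block, which had 1 residual degree of freedom. With a robust prior the same 7 genes had adjusted p from 0.00405 (Lypd3) to 0.0468 (Krt1 and Ly6d), and with no variance trend 0 probe sets passed at all. Under median centring with the block (the median of all tested genes is then 0.10 in place of -0.02), Krt10 (adjusted p = 0.0701), Sbsn (0.14) and Dsg1b (0.0633) were no longer called.

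Of 11 tested basal genes, which mark the sorted cells, 0 were called, against 0.868% of all tested genes. In 0 of them did the groups separate, whereas over all tested genes both cKO arrays lay below both het arrays in 10.9% and above them in 8.18%. The list median was 0.09 (0.21 within the first pair and -0.05 within the second pair). Keratin 5 (Krt5) had signals of 50933 and 35314 in Ko_1210 and KO_1261, against 57958 and 36834 in het_1210 and het_1261, and keratin 14 (Krt14) had 53068 and 36033 in cKO, against 59598 and 35520 in het. These keratins differed between the pairs more than between the groups. The log2 difference was -0.12 for Krt5 and -0.07 for Krt14, and for Krt14 the sign turned positive under median centring (0.05) and quantile scaling (0.04).

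Genes of the granular and cornified layers were mixed. Of 13 tested, 7 had their lowest signal in het_1210 and their highest in het_1261, the order that Calml3 showed, against 10.9% of all tested genes. In the other layer lists 3 of 11 basal and 0 of 12 spinous genes had this order. This order by itself makes a gene higher in cKO within the first pair and lower within the second pair. Another 5 of the 13 (Asprv1, Casp14, Tgm3, Lce1b and Lce1c) were lower within both pairs, against 31.6% of all tested genes, and Tgm1 was higher within both. The list median was 0.42 within the first pair and -0.75 within the second pair, and -0.12 for the difference of the group means, and 0 of the 13 were called with or without the block. Loricrin (Lor), the main cornified envelope protein, had signals of 3418 and 5705 in Ko_1210 and KO_1261, against 1063 and 9592 in het_1210 and het_1261. Involucrin (Ivl), another envelope precursor, had 330.3 and 237.2 in cKO, against 97.5 and 409.0 in het. Hornerin (Hrnr), a fused S100 protein of the cornified layer, had 704.6 and 1411 in cKO, against 103.9 and 2342 in het. In these 3 genes, as in Calml3, the cKO arrays lay between the het arrays. Filaggrin (Flg), whose mean lay below the filter, did not follow them: it had 3.62 and 11.2 in cKO, against 39.3 and 144.0 in het, values too close to background for a reliable fold. The protease gene Asprv1 was lower on both cKO arrays (3155 and 2622) than on both het arrays (3871 and 3635), as Calm4 was, but at -0.38 ± 0.15 it did not pass (adjusted p = 0.352).

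**Figure D2:**
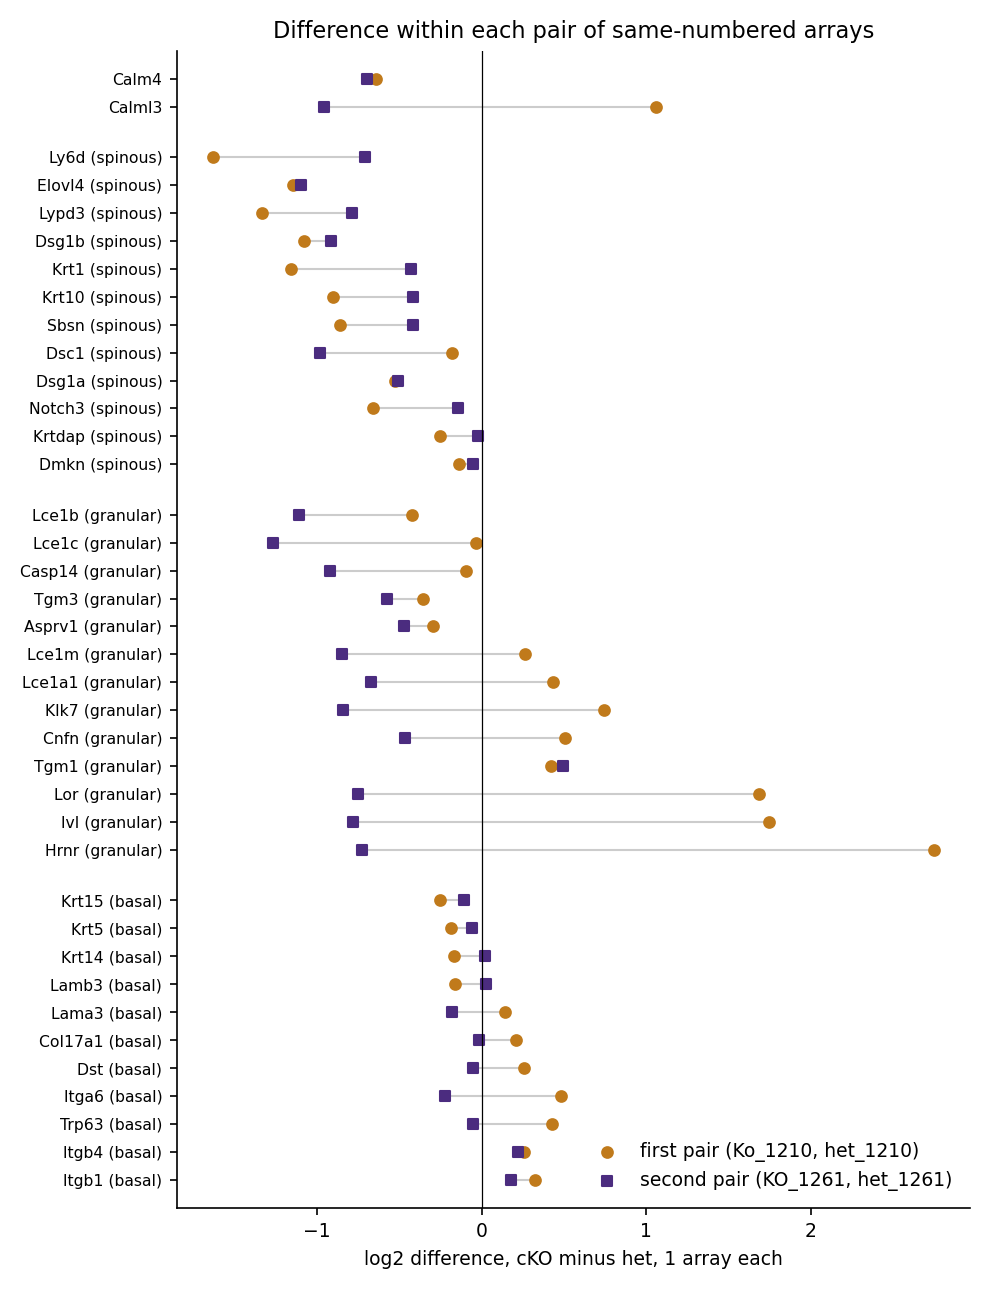
Each line gives a gene's log2 difference, cKO minus het, within the first pair (circles) and within the second pair (squares), 1 array each, for Calm4, Calml3 and the tested genes of the spinous, granular and basal lists. Calm4 (-0.64 and -0.70) and all 12 spinous genes lie left of 0 in both pairs. Calml3 (1.06 and -0.96) lies right of 0 in the first pair and left of 0 in the second. So do 7 of 13 granular and 5 of 11 basal genes, against 22.3% of all tested genes, and another 2 basal genes lie the other way around.

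Likeness over the 4 arrays was measured as the root mean square difference between log2 signals centred on each gene's mean, over 11054 other tested genes. With 4 points that share the same arrays, it is a description. The 5 genes closest to Calm4 were Nes (0.039), Dhx32 (0.041), Zfp956 (0.045), Arfgap3 (0.045) and Cntn2 (0.047), with Pearson r of at least 0.993. Nestin (Nes), an intermediate filament protein, had signals of 107.7 and 93.0 in cKO, against 160.5 and 142.5 in het. None of these 5 was called with the block (adjusted p from 0.201 for Dhx32 to 0.667 for Nes). Among the layer genes the closest to Calm4 was Dsg1a, at rank 78 of 11054 (0.125, r = 0.959), followed by Asprv1 at rank 137 and Sbsn at rank 184.

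The 5 genes closest to Calml3 were Map2 (0.135), Lif (0.141), Klk7 (0.142), Lce1a2 (0.175) and Dnajb14 (0.18), with r from 0.976 to 0.994. Klk7 encodes a kallikrein protease that cleaves corneodesmosomes, and Lce1a2 a late cornified envelope protein. Klk7 had signals of 170.0 and 214.4 in Ko_1210 and KO_1261, against 101.2 and 385.0 in het_1210 and het_1261. Lce1a2 had 227.8 and 262.7 in cKO, against 152.5 and 487.7 in het. Of the layer lists, Klk7 (rank 3), cornifelin (Cnfn, rank 18), Ivl (rank 19) and Lce1m (rank 31) stood closest to Calml3, all 4 from the granular and cornified list. That list ran down to Hrnr at rank 10283 (r = 0.938). The closest basal gene was Itga6 at rank 246 (r = 0.958), and basal Lama3 had the highest r of the layer genes (0.992, at rank 2467). Over the 13 granular and cornified genes the r of Calm4 ran from -0.842 (Tgm1) to 0.975 (Asprv1), with -0.173 for Klk7 and -0.406 for Ivl.

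**Figure D3:**
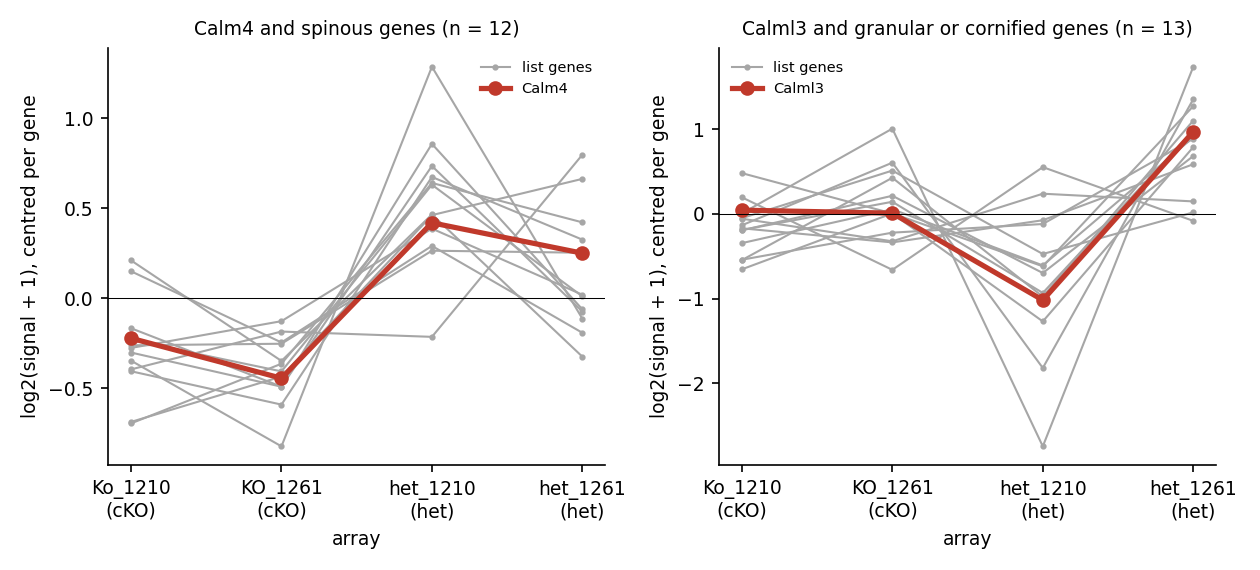
Lines join each gene's log2(signal + 1), centred on its mean, over the arrays Ko_1210, KO_1261, het_1210 and het_1261, with Calm4 over 12 spinous genes (left) and Calml3 over 13 granular or cornified genes (right). Calm4 is lower on the cKO arrays with most grey lines, and Calml3 has its low point in het_1210 and its high point in het_1261 with most grey lines.

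The proteins that calmodulins regulate were examined through 6 lists, and 0 of their 67 tested genes were called with or without the block (0.868% of all tested genes were called with it). The calmodulin-dependent kinases and related enzymes had a median of -0.20 over 10 genes, 7 of them below 0. Among those with the highest signals, Eef2k, the kinase that inhibits translation elongation, had 3498 and 2133 in Ko_1210 and KO_1261, against 5471 and 2508 in het_1210 and het_1261, a difference of -0.44 ± 0.15 (adjusted p = 0.251). Camk2g, a subunit of calmodulin kinase II, was at -0.22 (-0.41 and -0.03), and Phkg2, a catalytic subunit of phosphorylase kinase, at -0.18 (-0.10 and -0.25).

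The calcineurin and NFAT list had a median of -0.02 over 9 genes, 5 below 0 and 4 above. Ppp3cb, a catalytic subunit of calcineurin, had 3285 and 3500 in cKO, against 2388 and 3044 in het, and at 0.33 ± 0.15 did not pass (adjusted p = 0.494). Rcan1, a calcineurin inhibitor that NFAT induces, was at -0.26 (-0.52 and 0.01), and the transcription factor Nfatc3 at 0.12 (0.31 and -0.07). The 1 other probe set of Nfatc3 was tested and had the opposite sign. The pumps, cyclases and phosphodiesterases had a median of -0.25 over 11 genes, 7 below 0 and 4 above, with opposite signs within the pairs (-0.38 and 0.22). The 3 with the highest signals were all above 0 by their brightest probe sets. The plasma membrane calcium pump Atp2b1 was at 0.41 (0.58 and 0.23), Adcy3, an adenylate cyclase, at 0.18 (0.14 and 0.22), and Itpkc, an inositol trisphosphate kinase, at 0.12 (-0.38 and 0.61). Of the 3 other probe sets of Adcy3, 2 were tested with the opposite sign.

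Proteins that bind or hold calmodulin had a median of -0.02 over 13 genes. Marcks was at -0.09 (-0.06 and -0.12), its relative Marcksl1 at -0.09 (-0.24 and 0.07) and the scaffold Iqgap1 at 0.15 (0.24 and 0.05). The myosins that carry calmodulin light chains had a median of 0.18 over 9 genes (0.43 and -0.07), 7 above 0, with Myo1c at -0.10 (-0.19 and -0.004), Myo5a at 0.25 (0.66 and -0.15) and Myo9b at 0.03 (0.22 and -0.16). Calcium entry, stores and sensing had a median of -0.13 over 15 genes. The calcium-binding chaperones of the endoplasmic reticulum were at 0.24 (0.32 and 0.16) for Calr and 0.11 (0.20 and 0.02) for Canx, and the calcium pump Atp2a2 was at 0.23 (0.33 and 0.14).

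**Figure D4:**
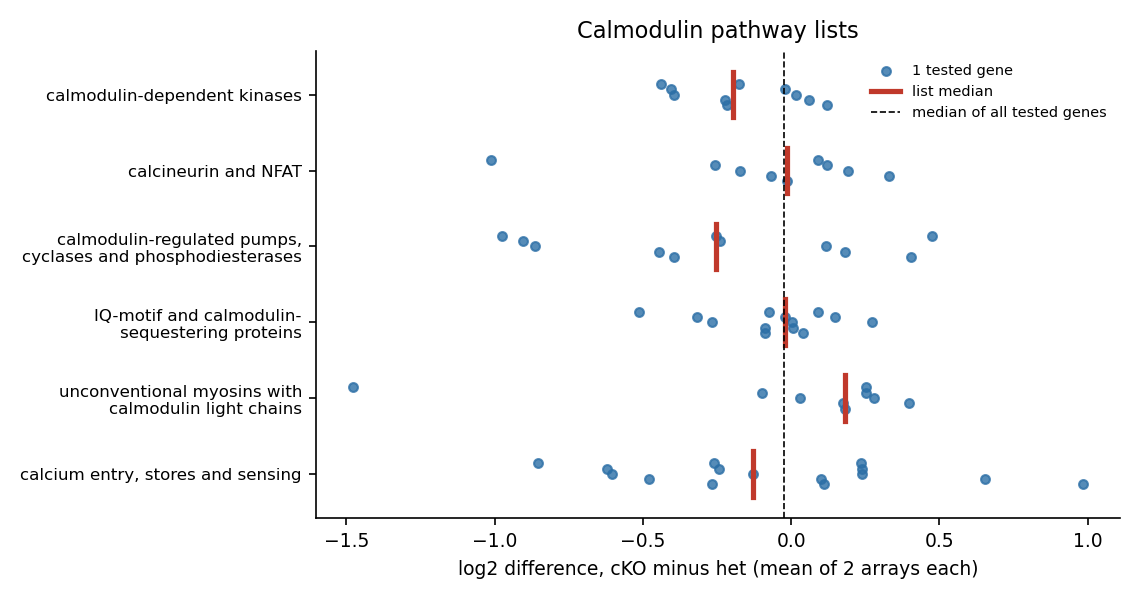
Each point is the log2 difference, cKO minus het, of 1 tested gene in the 6 lists of calmodulin-regulated proteins; red bars are list medians and the dashed line is the median of all tested genes (-0.02). List medians lie between -0.25 and 0.18, and 0 of the genes passed in limma.

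Markers of other cell types moved with Calm4 in part. Of 10 tested dermal fibroblast markers, 6 were lower on both cKO arrays and 2 higher, against 10.9% and 8.18% of all tested genes. The list median was -0.63 (-0.92 and -0.21). With 1 array left out it was -0.37 without Ko_1210, -0.38 without het_1210, -0.66 without het_1261 and -0.87 without KO_1261. Of the 10, Col3a1, Vim and Twist2 fell (0.615% of all tested genes were called lower) in limma with the block (adjusted p from 0.025 for Vim to 0.0451 for Twist2), calls that ended with the robust prior (0.106 to 0.301). The summed signal of the list was 36738 and 38033 in Ko_1210 and KO_1261, against 48195 and 41005 in het_1210 and het_1261. The summed signal of 6 melanocyte markers was 630.9 and 661.2 in cKO, against 1276 and 680.4 in het, and that of 6 immune markers 282.1 and 369.1 in cKO, against 550.8 and 590.3 in het. Of 2 immune markers tested, Laptm5 fell with the block (-1.47, adjusted p = 0.0367, and 0.0682 with the robust prior). For 6 endothelial markers it was 232.3 and 279.1 in cKO, against 389.7 and 381.3 in het. For 6 periderm markers it was 12595 and 10257 in cKO, against 23651 and 9979 in het. Of 5 periderm markers tested, Krt6a, a stress-inducible keratin, rose with the block (1.32, adjusted p = 0.0437), at 0.02 within the first pair and 2.63 within the second pair, a call that ended with the robust prior (0.874). Within the first and the second pair the immune median was -1.05 and -0.86 (2 tested genes) and the endothelial median -0.77 and -0.32 (3). The melanocyte median was -0.86 and -0.02 (4) and the periderm median -0.37 and -0.03 (5). The lowest marker signal of these lists was 2.56 (Tie1 in Ko_1210), below the filter on low signals (65.9). A signal that low does not show that such cells were present. The part of these cells in the Calm4 difference was not tested. No list of other cell types had its lowest sum in het_1210 and its highest in het_1261, the order of Calml3. The granular list did, with a sum of 9351 and 12358 in cKO, against 6694 and 19966 in het. The brightest genes weigh most in such sums. By gene, 1 of 2 tested skeletal muscle markers had this order, and 0 of the tested markers of the other cell types. The part of any cell type in the Calml3 pattern was not tested.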

How the data were processed

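The authors deposited 1 intensity per probe set and array on a linear scale, made with MAS5 (per the submitters' processing notes; version not given in the sources used here). Trizol RNA was labelled with biotin by 3' IVT express, per the labels' protocols. All arrays had a mean of 500.0 after trimming 2% of probe sets at each end, which shows a common scaling. Low MAS5 signals are noisy on the log scale, and 2 arrays per group limit the precision.

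Of 45101 probe sets, 64 controls were left out. Platform symbols were updated by Entrez identifier (34945 probe sets had 1 symbol, 932 several and 9160 none), and the brightest probe set stood for a gene. Values were taken as log2(signal + 1), and probe sets above the median mean (22518, for 11055 genes) were tested with limma 3.58.1 in R 4.3.3 (eBayes with a variance trend, two-sided, Benjamini-Hochberg over all tested probe sets, threshold 0.05). The fit without a block had 2 residual degrees of freedom, and that with the pair as a block had 1. Only genes that passed with the block are said to have risen or fallen, with that fit's SE. The limma fits were tested on simulated data with a pair effect built in and noise taken from the fit with the block. That test cannot show which fit suits these arrays.

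Members and lists were chosen with earlier results of these data known. Named were the members, other calmodulin genes, genes of the lists that passed or else the 3 with the highest signal, a few layer genes, the 5 genes most like each member, and the 3 genes on either side of Calm4. Dsg1a, Dmkn, Dsc1, Asprv1, Ivl, Hrnr, Flg, Cnfn, Lce1m, Casp14, Tgm1, Tgm3, Lce1b, Lce1c, Krt15, Itga6, Lama3 and Tie1 were named after their values were seen. Promoter sequences are from RefSeq on GRCm38.p6. Plots used matplotlib 3.10.9 and Python 3.11.15.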

Additional observations from a re-analysis of the deposited data

Results flagged for a closer look

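Calml3 differed in opposite directions within the pairs of same-numbered arrays: cKO minus het was 1.06 on the log2 scale within the first pair and -0.96 within the second pair. The gap of -2.02 between these differences rests on 1 array per group and pair and was not tested. It lay in the het arrays (229.3 and 911.9), since the cKO arrays differed little (479.6 and 468.0).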

How the results depend on the processing

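The Calm4 difference kept its sign under the fit with the number as a replicate block (-0.67, since the balanced block leaves the mean difference as it is), with a pseudocount of 16 (-0.67), under median centring (-0.55) and quantile scaling (-0.66), and with 1 array left out in turn (-0.78 to -0.56). The Calml3 difference was -0.94 without het_1210 and 1.04 without het_1261, the range over arrays left out, and -0.001 under quantile scaling, so it has no settled sign. In all, 0 probe sets were called without a block, with the pseudocount of 16, with no filter, under median centring or quantile scaling, and with the block but no variance trend, while leaving out 1 array gave 0 to 5 (5 without Ko_1210, 3 without KO_1261). With the number as a block 194 were called, 84 with a robust prior, 109 with median centring and 276 with quantile scaling, the last 2 added after seeing the data. Same-numbered arrays deviated from their group means together (correlation 0.755), which over 2 pairs does not show that the numbers pair animals. The spinous median was -0.99 without het_1261 and -0.40 without het_1210, and the granular median 0.70 and -1.01. The median of the myosins changed sign without het_1210 (-0.20), and that of the pumps, cyclases and phosphodiesterases was 0.14 without Ko_1210 and -0.71 without KO_1261. Under median centring the medians of the calcineurin and of the calmodulin-binding list turned positive, as that of all tested genes did (0.10). Calm2 and Calm3 were not analysed here, and each of the other members had 1 probe set under its symbol alone. Calls rest on 2 arrays a group, and low signals such as that of Flg give imprecise folds.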
